A study of Mus musculus with 2 samples.

Results

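The transporters that clear glutamate and GABA from the synapse, or load them into synaptic vesicles, were followed at the RNA level in the hippocampus of mice fed astaxanthin, a red carotenoid. The genes are Slc1a1, Slc1a2, Slc1a3, Slc17a6, Slc17a7, Slc6a11 and Slc32a1. Their probes were found as those array probes for mouse transcripts, on both arrays, whose RefSeq accession belongs to one of these symbols. This gave 11 of the 41174 probes, and all 7 genes were represented, 4 of them by 2 probes and 3 by 1. All 11 probes were measured, that is, the scanner called them well above background in both channels of each array, and 30078 probes in all were measured with a usable ratio on both arrays. These stand for 23603 genes and transcripts.

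The mice were male C57BL/6J animals, 11 weeks old and 26 to 28 g, housed singly. After 1 week of acclimatization, the astaxanthin (ASX) group received for 4 weeks a powdered diet with 0.5% (w/w) of a powder that contains 2% astaxanthin from Haematococcus pluvialis. The control group received 0% of it, with placebo powder. Total hippocampal RNA of both groups was hybridised together on 2 two-colour Agilent arrays: the ASX RNA was labelled with Cy5 on array 1 and with Cy3 on array 2, with the control RNA in the other dye. The array titles give 4 mice, and how their RNA was combined is not given in the sources used here. The arrays were therefore treated as a dye swap of 1 pair of RNA samples, which is 1 replicate of the diet. No test of the diet is possible with it, every SD below is the technical SD of the 2 arrays, and the number of arrays limits the precision.

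Glutamate is the main excitatory transmitter of the hippocampus and GABA the main inhibitory one. No enzyme in the cleft breaks either down, so their action ends by uptake through sodium-coupled carriers in the membranes of neurons and astrocytes. Inside the terminals, vesicular carriers driven by a proton gradient fill synaptic vesicles, and which vesicular carrier a neuron makes is a common sign of the transmitter it releases. The SLC1 family holds the plasma membrane glutamate carriers, SLC17 the vesicular glutamate carriers, SLC6 the plasma membrane GABA carriers, and SLC32 the vesicular carrier for GABA and glycine. In RNA from whole tissue, fewer cells of a type and less RNA per cell cannot be told apart.

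In the main processing, the transporter RNAs lay close to equal levels in the 2 diets, as most RNAs did. Of all measured probes, 96.7% had a mean ratio within 1.2-fold. Near-equality is thus not particular to the transporters, and it depends on how the arrays were centred. With scaling on spike-in RNAs and no loess, the 7 genes ran from -0.20 to -0.54, and the median of all genes was -0.31. None of the 7 genes was at least 1.5-fold higher or lower in the ASX RNA on each array, a size that 0.0636% of all genes and transcripts reached upward and 0.0212% downward. The gene farthest from equality was Slc1a2, with a mean ASX to control ratio of 1.17, and the lowest was Slc32a1 with 0.935, each at its brightest probe. At the level of probes, none of the 11 reached that size either, against 0.0499% of all measured probes upward and 0.0166% downward. The median log2 ratio of the 7 genes was 0.024, against -0.0042 over all genes and transcripts. By array, the median of the 7 was 0.087 on array 1 and -0.052 on array 2. Signs mostly turned with the dyes: 1 of the 11 probes was above 0 on both arrays (21.9% of all measured probes were) and 2 were below 0 on both (23.4%). The other 8 had opposite signs on the 2 arrays, as 54.7% of all measured probes did.

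**Figure D1:**
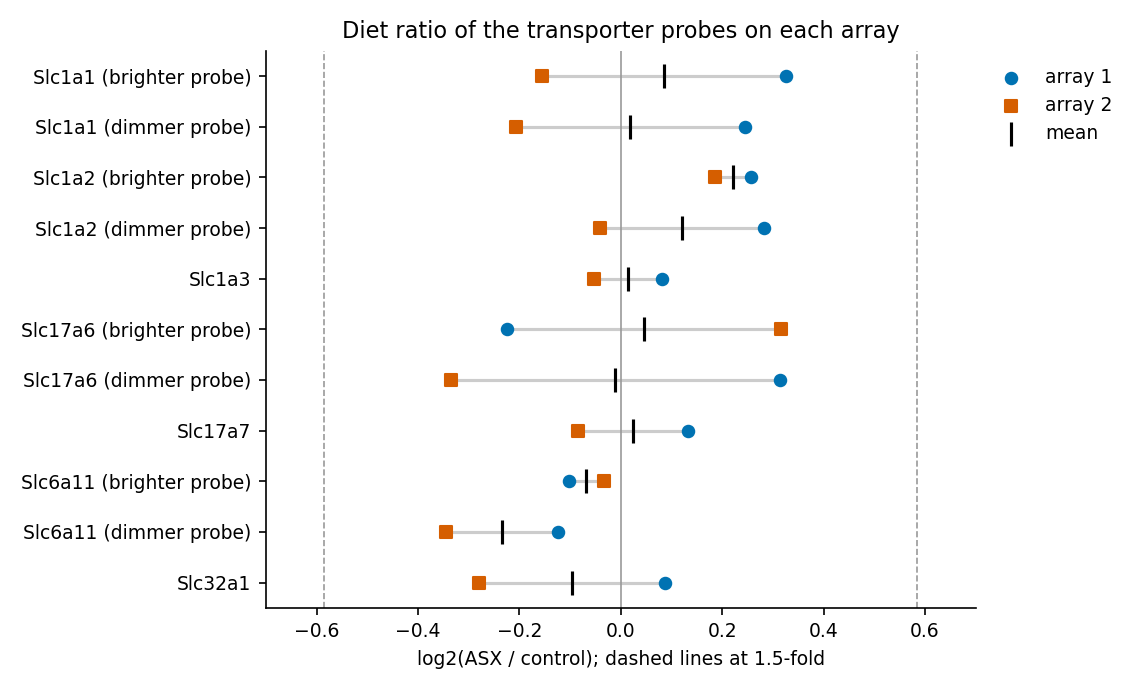
Log2 ratio of ASX over control for the 11 transporter probes (rows), with array 1 as circles, array 2 as squares and their mean as a bar; dashed lines mark 1.5-fold. All points lie between the dashed lines, and the brighter Slc1a2 probe is the single one with both arrays above 0.

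For the intensities below, each channel was normalized within and then between arrays (loess and Aquantile), and values are log2 intensities of 1 probe. They compare the 2 RNAs at that probe and do not rank probes or genes by abundance. The share of all measured probes at which the 2 RNAs did not overlap is not given here. A lack of overlap therefore does not set a probe apart.

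Slc1a2 encodes GLT-1, the astrocytic carrier that performs most glutamate uptake in the forebrain. Its brighter probe (A_52_P168496, filed under NM_001077514) had log2 intensities of 13.40 for ASX and 13.15 for control on array 1, and 13.32 for ASX and 13.13 for control on array 2. The ASX RNA was higher on both arrays, and the ranges of the 2 RNAs did not overlap. The log2 ratio was 0.26 on array 1 and 0.19 on array 2, a mean of 0.22 ± 0.051 (SD, n = 2 arrays). This mean stood at percentile 95.9 of all measured probes, and 2.85% of them were above 0 by at least as much as its smaller ratio on both arrays. Its SD between arrays was below the median of 0.106 over all measured probes.

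The dimmer Slc1a2 probe (A_51_P477875), filed under another RefSeq transcript of the gene, NM_011393, did not repeat this on array 2. It had 11.68 for ASX and 11.40 for control on array 1, and 11.54 for ASX and 11.58 for control on array 2. Here the control value of array 2 lay above the ASX value, and the 2 RNAs overlapped. The ratios were 0.28 and -0.041, a mean of 0.12 ± 0.23. The probes' means thus had the same sign and differed by 0.10, a gap larger than that of 74.7% of the 4549 genes with at least 2 measured probes. Which transcripts each probe detects was not analysed here.

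Slc1a3 encodes GLAST, the other astrocytic glutamate carrier, which radial glia-like stem cells of the dentate gyrus also make. Its single probe (A_51_P268697, NM_148938) had 14.13 for ASX and 14.05 for control on array 1, and 14.26 for ASX and 14.31 for control on array 2. The 2 RNAs overlapped, and the arrays differed more from each other than the diets did. The log2 ratios were 0.081 and -0.052, a mean of 0.015 ± 0.094, which is percentile 59.0 of all probes.

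Slc1a1 encodes EAAC1, the glutamate and cysteine carrier of neurons. Its brighter probe (A_51_P110759, NM_009199) had 14.31 for ASX and 13.98 for control on array 1, and 13.86 for ASX and 14.02 for control on array 2. The ASX RNA was thus the higher of the 2 in Cy5 and the lower in Cy3. Ratios of 0.33 and -0.16 gave a mean of 0.085 ± 0.34. The dimmer probe (A_52_P637988, same accession) followed it closely, with 0.24 and -0.21 and a mean of 0.019 ± 0.32. Its intensities were 11.42 for ASX and 11.17 for control on array 1, and 11.34 for ASX and 11.54 for control on array 2. On both probes the part of the ratio that followed the dye, computed as the turned ratio of array 1 minus that of array 2, divided by 2, was 0.24 and 0.23 towards Cy5, above that of 97.6% and 97.1% of all probes. The diet part was smaller than the dye part on each.

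**Figure D2:**
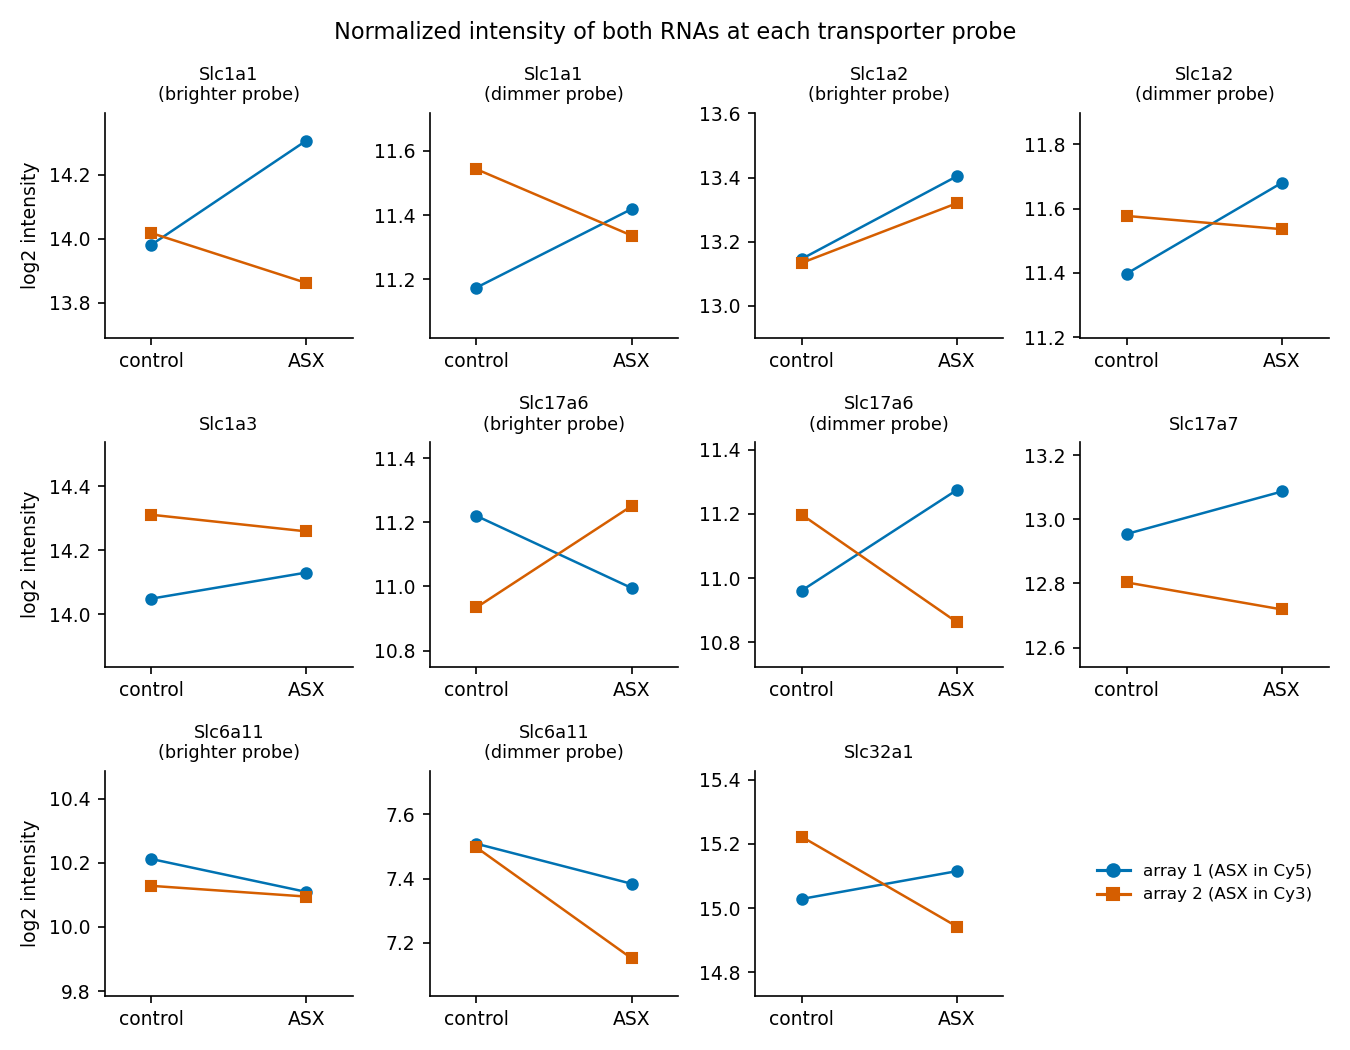
Normalized log2 intensity (vertical axis, 0.7 units high in each panel) of the control and ASX RNA at each of the 11 transporter probes, with 1 line per array. Lines run the same way on both arrays for the brighter Slc1a2 probe and both Slc6a11 probes. At the other 8 probes they run opposite ways, whether or not they cross, so the sign of the difference turned with the dyes. Neither pattern alone tells diet or dye from spot noise.

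Slc17a7 encodes VGLUT1, the vesicular glutamate carrier of hippocampal pyramidal and granule cells. Its probe (A_51_P137913, NM_182993) had 13.09 for ASX and 12.95 for control on array 1, and 12.72 for ASX and 12.80 for control on array 2. The 2 RNAs overlapped. The ratios were 0.13 and -0.084, a mean of 0.024 ± 0.15, at percentile 62.7 of all probes.

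Slc17a6 encodes VGLUT2, the vesicular glutamate carrier of thalamic, habenular and many other subcortical neurons, whose axons also reach the hippocampus. Its brighter probe (A_51_P174996, NM_080853) had 11.00 for ASX and 11.22 for control on array 1, and 11.25 for ASX and 10.93 for control on array 2. Its dimmer probe (A_52_P8197, same accession) ran the opposite way on each array, with 11.27 for ASX and 10.96 for control on array 1, and 10.86 for ASX and 11.20 for control on array 2. At both probes the ranges of the 2 RNAs overlapped. The ratios were -0.22 and 0.32 for the brighter probe and 0.31 and -0.33 for the dimmer one.

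The dye part of the ratio therefore had opposite signs at the 2 Slc17a6 probes. It was -0.27 and 0.32 on the log2 scale of Cy5 over Cy3, at percentiles 0.735 and 99.2 of all measured probes. This gap of 0.59 was larger than that of 99.7% of the genes with at least 2 measured probes, whose median was 0.092. With 1 spot per probe on each array, the dye part also holds spot and array noise, which cannot be told apart from an effect of the dye. In the mean of the dye swap, the probes came to 0.046 ± 0.38 and -0.011 ± 0.46, a difference of 0.056 that is close to the median of 0.054 for such genes. A single array would have given ratios of opposite sign for this gene depending on the probe. No probe of Slc17a6 separated the diets by more than its SD between arrays.

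**Figure D3:**
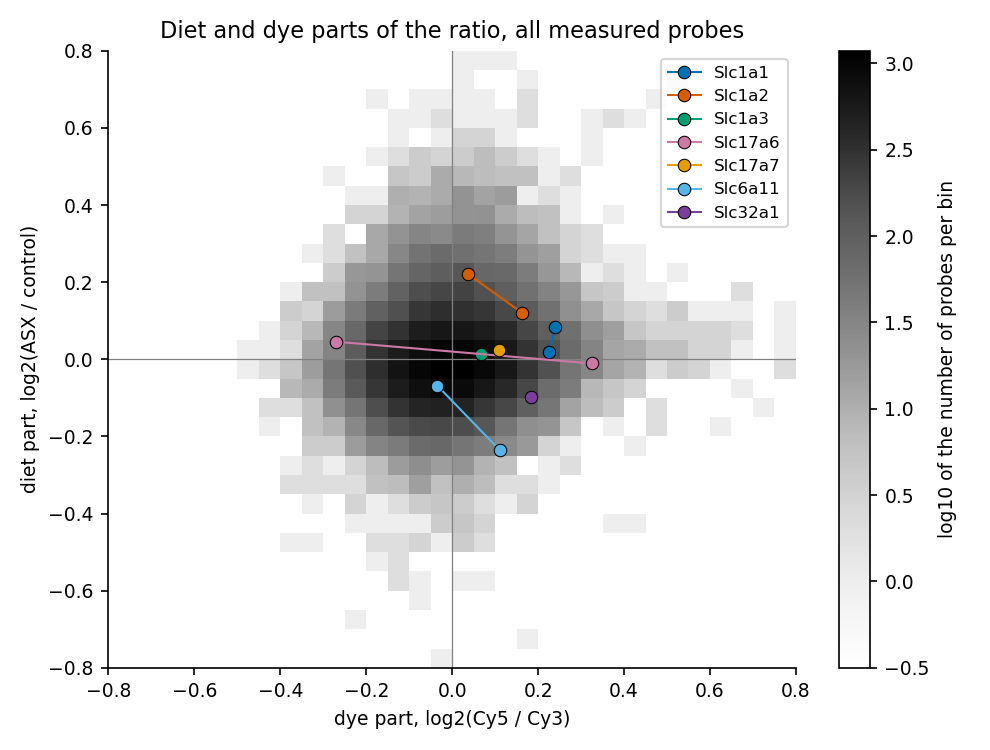
Diet part of the log2 ratio (vertical axis, mean of the turned arrays) against its dye part (horizontal axis, log2 of Cy5 over Cy3) for all measured probes, as grey bins of 0.05, with 30 probes outside the frame; coloured points are the 11 transporter probes, and lines join probes of 1 gene. The Slc17a6 probes lie on opposite sides of the dye axis at nearly the same diet value.

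Slc6a11 encodes GAT3, the astrocytic GABA carrier. Its brighter probe (A_51_P271311, NM_172890) had 10.11 for ASX and 10.21 for control on array 1, and 10.09 for ASX and 10.13 for control on array 2. The ASX values lay just below the control values without overlap. Ratios of -0.10 and -0.033 gave a mean of -0.068 ± 0.049, and 14.8% of all probes were below 0 on both arrays by at least as much as its smaller ratio.

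The dimmer Slc6a11 probe (A_52_P227833, same accession) was the lowest of the 11 probes. It had 7.38 for ASX and 7.51 for control on array 1, and 7.15 for ASX and 7.50 for control on array 2. The ASX RNA was lower on both arrays, with no overlap. The ratios were -0.12 and -0.35, a mean of -0.24 ± 0.16 and an ASX to control ratio of 0.850, at percentile 1.06 of all probes. Probes below 0 on both arrays by at least as much as its smaller ratio made up 2.82%. This probe was dim, brighter than 23.5% of measured probes, with raw signals of 142 to 229 over a local background of 64.0 to 72.5. Its mean was -0.20 with no background correction and -0.30 with the normexp offset at 16 in place of 50. Both probes of Slc6a11 agreed in sign on both arrays, but their means differed by 0.17, more than in 91.1% of genes with at least 2 measured probes.

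Slc32a1 encodes VGAT, which fills the vesicles of inhibitory neurons with GABA or glycine. Its probe (A_52_P138926, NM_009508) had 15.12 for ASX and 15.03 for control on array 1, and 14.94 for ASX and 15.22 for control on array 2. The 2 RNAs overlapped, and the array with ASX in Cy3 gave the lower ASX value. The ratios were 0.087 and -0.28, a mean of -0.097 ± 0.26, at percentile 14.8 of all probes.

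The technical precision was examined in several ways. Over the 30078 measured probes, the ASX to control log2 ratios of the 2 arrays were not correlated (Pearson r = -0.032). The diet part of the ratio had an SD of 0.115 across these probes and the dye part one of 0.119. A percentile or a shared sign on both arrays therefore does not by itself show a repeatable diet difference. For 200 measured probes printed in 10 spots, the median SD over spots of the mean log2 ratio was 0.034, and its largest value was 0.11. Each transporter probe had 1 spot, and of the 11, the means of both Slc1a2 probes and of the dimmer Slc6a11 probe were farther from 0 than that largest value. That does not set them apart, since the SD of the mean log2 ratio across all measured probes, 0.115, was also larger. The share of all probes that far from 0 was not computed. The SD over spots also leaves out the difference between arrays, whose SD was 0.23 for the dimmer Slc1a2 probe. The scanner software put the error of a single log ratio at 0.20 to 0.22 on the log2 scale for every one of the 22 transporter spots. Of the 22 p-values it gave, 1 was under 0.05, that of the dimmer Slc6a11 probe on array 2 at 0.0285, while 6.36% of measured spots were under it on array 1 and 5.18% on array 2. These values describe spots and not animals.

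Scaling the arrays without loess moved all 7 transporters down, by unequal amounts. With each array centred on its median and no loess, the median of all genes and transcripts went to -0.10. Slc1a2 then had 0.0067, Slc1a1 -0.13, Slc17a6 -0.14, Slc17a7 -0.18, Slc1a3 and Slc6a11 -0.22 each, and Slc32a1 -0.33. Relative to that median, Slc1a2 was 0.11 higher and Slc32a1 0.23 lower. The remaining 5 genes were 0.027 to 0.11 lower, so Slc1a1, Slc1a3, Slc17a6 and Slc17a7 changed side. With scaling on the spike-in RNAs the median of all genes was -0.31. The distances from it were the same by construction, since the median and spike-in scalings differ only by a constant per array. Slc1a2 was above the median of all genes, and Slc32a1 and Slc6a11 were below it, both with loess and without it. The median and spike-in scalings count as 1 check of this. The counts past 1.5-fold over all genes, 15 higher and 5 lower, became 71 and 12 with the log ratios of the scanner software, 12 and 12 with median centring, and 4 and 37 with spike-in scaling. None of the 7 genes was among them under any of these.

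**Figure D4:**
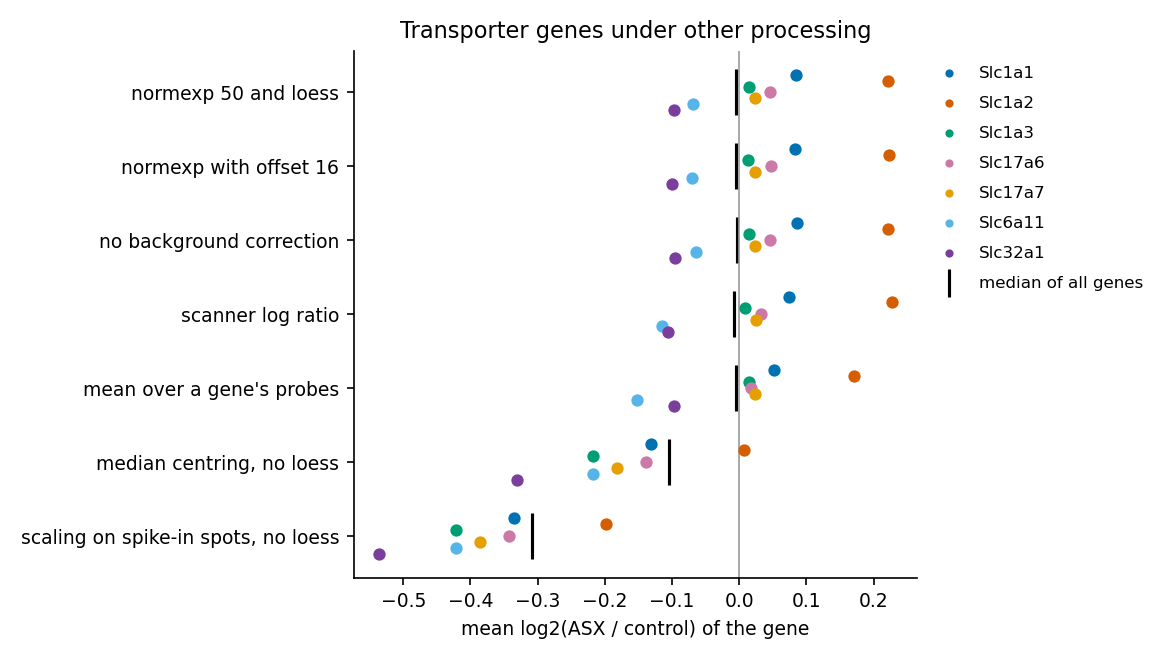
Mean log2 ratio of ASX over control (horizontal axis) of the 7 transporter genes under 7 ways of processing (rows), with a bar at the median of all genes and transcripts. Slc1a2 lies to the right of the bar and Slc6a11 and Slc32a1 to its left in every row shown. The median and spike-in rows differ only by a shift shared by all genes.

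Genes that work beside these carriers in glutamate and GABA handling were read from a list of 26, of which 24 had a probe and 22 were measured. None of the 22 was 1.5-fold apart in either direction, 5 were above 0 on both arrays and 2 below 0 on both. As shares of all genes and transcripts, 22.2% were above and 23% below. The median of the 22 was 0.00037. Slc6a9, the gene of a glycine carrier, had 0.038 and -0.026 on the arrays, a mean of 0.0061 ± 0.045. Slc6a13, the gene of GAT2, a GABA and taurine carrier of the meninges, had 0.22 and 0.26, a mean of 0.24 ± 0.025, and its other probe had a mean of 0.22. It was the highest of the list at the brightest probe.

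Of the other carriers, Slc1a5, a neutral amino acid exchanger of the glutamate carrier family, had a mean of 0.16 ± 0.15. Slc7a11, the cystine and glutamate exchanger, had -0.070 ± 0.22, with means of 0.04 and -0.08 at its other probes. Slc17a8, the vesicular carrier VGLUT3, had -0.012 ± 0.048. Among glutamine carriers, Slc38a1 had 0.12 ± 0.11 at its brighter probe and a mean of 0.01 at the other. Slc38a2 had -0.099 ± 0.40 at its brighter probe but a mean of 0.42 at the other, so its probes gave no common direction.

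Enzymes of the cycle had means near 0 at their brightest probes, in part with a large SD between arrays. Glul is the gene of the astrocytic glutamine synthetase that disposes of glutamate taken up through Slc1a2 and Slc1a3. It had 0.49 and -0.33, a mean of 0.079 ± 0.58, and its other probe had a mean of 0.16. Gls2, a glutaminase gene, had -0.018 ± 0.058. The GABA-synthesising enzymes, which make the cargo of VGAT, had means of -0.064 ± 0.19 for Gad1 and 0.032 ± 0.13 for Gad2. Like Slc32a1, both were above 0 on array 1 and below 0 on array 2, but so was Glul. Opposite signs on the 2 arrays were found for 54.8% of all genes and transcripts.

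**Figure D5:**
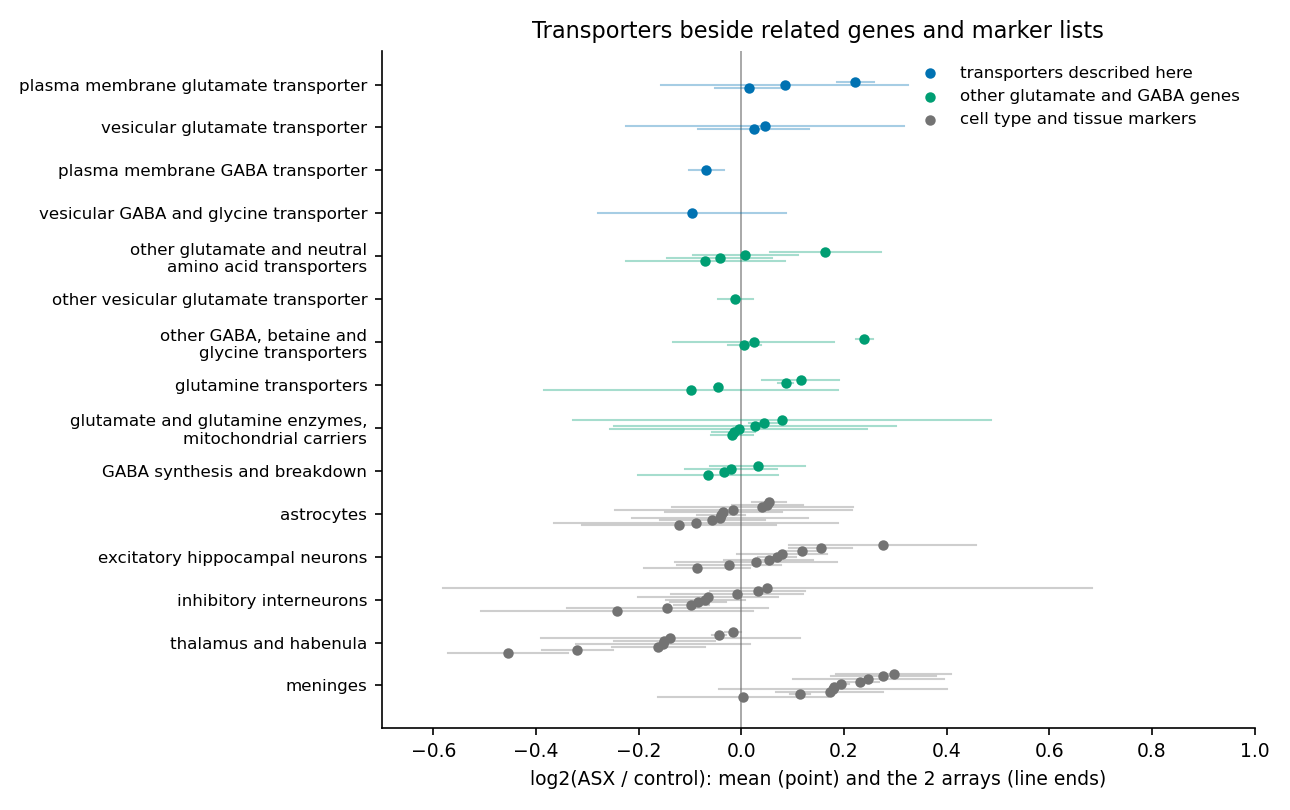
Log2 ratio of ASX over control (horizontal axis) for the transporters by role, other genes of glutamate and GABA handling, and marker lists (rows); points are means of the 2 arrays and line ends the single arrays. The thalamic and habenular genes lie at or below 0 and the meningeal genes at or above 0, while the transporters lie on both sides.

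Markers of the cells that make these carriers, and of tissue next to the hippocampus, were set beside them. All 9 markers of excitatory hippocampal neurons on the array were measured, among them the dentate granule cell gene Prox1 and the CA1 gene Wfs1. Since 73.1% of all probes were measured, this does not check the tissue label. The median of the 9 was 0.070 (0.094 on array 1 and 0.085 on array 2). They ran from -0.086 for Wfs1 to 0.28 for Zbtb20, with 4 of 9 above 0 on both arrays. Slc17a7, made by the same cells, had a mean of 0.024. The 10 astrocyte markers had a median of -0.037, 0.050 on array 1 and -0.11 on array 2, from -0.12 for S100b to 0.054 for Gjb6. With each gene at its brightest probe, Slc1a2 lay above every astrocyte marker, and Slc6a11, at -0.068, lay within their range. Only the dimmer Slc6a11 probe, at -0.24, lay below them all. The 9 measured interneuron markers had a median of -0.070, 0.052 on array 1 and -0.14 on array 2, from -0.24 for Dlx1 to 0.051 for Cck. Slc32a1, with 0.087 and -0.28, had the same signs as that median. These signs were not particular to interneuron genes. The astrocyte median and the median of the 7 transporters had them too, and 54.8% of all genes and transcripts had opposite signs on the arrays.

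For thalamus and habenula, 8 of 10 listed genes were measured and their median was -0.15, with 6 below 0 on both arrays and 0 above, from -0.46 for Tnnt1 to -0.016 for Zfhx3. Gbx2 and Plekhg1 were not well above background. Slc17a6, which thalamic and habenular neurons make, had 0.046 ± 0.38 and -0.011 ± 0.46 at its probes. Its signs were opposite on the arrays, as were those of 2 of the 8 markers. Both SDs were larger than the size of the marker median, so whether Slc17a6 moved with these genes cannot be told. All 10 meningeal genes were measured and their median was 0.19, with 8 above 0 on both arrays and 0 below, from 0.0031 for Dcn to 0.30 for Slc6a20a, and Slc6a13 lay within this range. The part of these tissues in the values of Slc6a13 and Slc17a6 was not tested.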

How the data were processed

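Per the submitters' processing notes, scans were quantified in Agilent Feature Extraction 11.0.1.1. Per the file headers, the deposited intensity is the median of a spot's pixels per channel beside a local background, not normalized. The deposited log10 ratio of Cy5 over Cy3, its error score and its p-value come from the scanner software after background subtraction and dye normalization. The deposited value table of the series holds the same log10 ratios within 5e-08.

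Here, median signals were corrected by normexp (offset 50) and normalized by loess within each array, control spots at weight 0, with limma 3.58.1 in R 4.3.3. The log2 ratios were signed as ASX over control, and repeated spots of 1 probe were averaged. A probe was measured where more than 0.5 of its spots were well above background in each channel. No spot was saturated, and 3 non-uniform spots were left out. A gene took its brightest measured probe. The procedure was tested on simulated dye-swap data.

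Accessions were named through RefSeq (GRCm38.p6): 23374 probes matched 1 symbol, 17800 none. Coordinates are not given, since the array design used another build. Members and lists were chosen with earlier results of these data known. All probes of the 7 genes are named. In each role of the related genes and each marker list, the highest and the lowest mean are given, with Gad1, Gad2 and Glul always. A further gene that was always to be given is not reported here. Other genes named were chosen after their values were seen. Likeness of pattern to other genes was not computed, since 1 comparison gives no pattern. Both arrays lay on 1 slide. Alternatives covered background, scaling, filter, probe summary, outlier spots and single arrays.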

Additional observations from a re-analysis of the deposited data

How the results depend on the processing

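None of the 7 transporter genes was 1.5-fold apart under any of the 13 alternatives, single arrays included. Median centring and spike-in scaling, both without loess, mattered most. The median of the 7 genes was -0.18 with the former and -0.39 with the latter. In either, 0 member probes were above 0 on both arrays, and 10 were below with spike-in scaling. Over all genes, 28 were higher with an offset of 16; 71 higher and 12 lower both with the scanner software's log ratios and with the deposited value table; 12 lower with median centring; and 4 higher and 37 lower with spike-in scaling. On single arrays, 36 to 137 genes were higher and 28 to 47 lower. The member probes above 0 then numbered 2 to 8 and those below 0 numbered 3 to 9, and the median of the 7 was -0.052 to 0.087. Slc1a1, Slc1a3, Slc17a6 and Slc17a7 had the opposite sign in 2 of the 11 alternatives with both arrays and Slc1a2 in 1. Slc6a11 and Slc32a1, both negative in the main processing, kept their sign in all 11. Signs changed only with median centring and spike-in scaling, which lowered the median of all genes to -0.10 and -0.31. A negative sign kept under such a shift is no check of it. On single arrays, Slc32a1 changed sign, with 0.087 on array 1 and -0.28 on array 2. Aquantile does not alter ratios, the value table holds the scanner's, and the median and spike-in scalings differ only by a constant per array. Fewer than 11 are therefore separate checks. No paired analysis was possible because the 2 arrays hold 1 pair of RNA samples. Brightness limits the dimmer Slc6a11 probe most.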

Other observations

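The other genes of the same solute carrier families, with the SLC18 carriers for monoamines and acetylcholine, were looked up by symbol after the values above were known. Of 27 further genes with a probe, 16 were measured, none was 1.5-fold apart in either direction, 4 were above 0 on both arrays and 3 below, and their median was -0.0071. Slc6a6, the gene of the taurine transporter, had 0.20 and 0.36 at its brighter probe but a mean of -0.010 at the other. Slc6a17, which encodes a vesicular neutral amino acid carrier of neurons, had 0.24 and -0.065, a mean of 0.090 ± 0.22. Slc18a2, the vesicular monoamine carrier gene, had -0.096 and 0.092. The plasma membrane carriers for noradrenaline and serotonin, Slc6a2 and Slc6a4, were not measured.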
